A study of Mus musculus with 16 samples.

Results

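Dazl and 9 other genes whose RNA is found mainly in the testis or in germ cells were followed in mouse embryonic stem cells as they left the naive state. The genes were Dazl, Sohlh2, Brdt, Tuba3a, Tuba3b, Rpl10l, Dpep3, Slc25a31, Tktl2 and Prss50, out of 35975 genes in the tables. The 10 genes were taken by name, and each gene's value is the sum of the estimated counts of its transcripts, matched by Ensembl identifier. They were chosen by their measured levels in these same libraries, with the values of all groups already known, so what follows describes those levels and gives no p-value for them.

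The line was ES-E14TG2a (E14), a mouse embryonic stem cell line, in 2 genotypes named WT and TKO. The labels do not spell out TKO, and nothing in them says whether either genotype is more than 1 clone. All cells were first kept on fibronectin in serum-free N2B27 medium with LIF, 2 kinase inhibitors (2i) and vitamin C, and were harvested in that state on day 0. The rest were moved to Fgf2 and Activin A with 1% knock-out serum, which drives naive cells toward epiblast-like cells (EpiLCs), and were harvested on days 2, 4 and 7, with a further split of the cultures on day 4. Each of the 8 groups, WT and TKO on each day, had 2 libraries labelled as biological replicates, so there were 16 libraries of polyadenylated RNA.

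As background, germ cells use a set of genes that other cells keep silent, for translation control, meiosis, the guarding of the genome against transposons and the building of sperm. The promoters of many such genes are rich in CpG dinucleotides and carry DNA methylation in somatic cells, which Dnmt3a and Dnmt3b put in place around implantation and Dnmt1 copies at cell division. Naive stem cells in 2i with vitamin C hold little DNA methylation, and the switch to epiblast-like cells is the culture model of the step at which it is laid down. A further layer is a Polycomb complex with E2f6, Mga and Max, whose members bind E2F motifs and E-boxes.

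The letters below are the promoters of 5 of the 10 genes, shown because Dazl has the most CpG dinucleotides of the 10, Slc25a31 holds all 4 of the strings searched for below, Tktl2 and Tuba3b had the greatest log2 differences between genotypes on day 4, and Tuba3a is the near copy of Tuba3b. Each window runs from 250 bases before to 50 bases after the transcription start, 5′ to 3′ on the gene's own strand, from RefSeq on GRCm38.p6, and capitals mark CpG dinucleotides. Dazl lies on the minus strand at chr17:50293571-50293870, Slc25a31 on the plus strand at chr3:40708621-40708920, Tktl2 on the plus strand at chr8:66511490-66511789, Tuba3a on the minus strand at chr6:125286032-125286331 and Tuba3b on the plus strand at chr6:145615713-145616012.
Dazl: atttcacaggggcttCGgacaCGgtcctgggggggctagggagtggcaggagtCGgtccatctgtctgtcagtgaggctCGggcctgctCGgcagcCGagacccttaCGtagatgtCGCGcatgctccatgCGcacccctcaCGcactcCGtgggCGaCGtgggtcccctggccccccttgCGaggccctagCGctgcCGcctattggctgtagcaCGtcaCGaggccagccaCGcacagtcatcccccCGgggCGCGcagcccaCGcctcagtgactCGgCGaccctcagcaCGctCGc
Slc25a31: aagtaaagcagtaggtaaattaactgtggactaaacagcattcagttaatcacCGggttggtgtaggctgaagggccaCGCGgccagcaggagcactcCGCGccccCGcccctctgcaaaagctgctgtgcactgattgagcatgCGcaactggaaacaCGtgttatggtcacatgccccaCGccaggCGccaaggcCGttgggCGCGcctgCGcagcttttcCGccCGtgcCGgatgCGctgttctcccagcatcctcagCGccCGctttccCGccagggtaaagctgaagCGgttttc
Tktl2: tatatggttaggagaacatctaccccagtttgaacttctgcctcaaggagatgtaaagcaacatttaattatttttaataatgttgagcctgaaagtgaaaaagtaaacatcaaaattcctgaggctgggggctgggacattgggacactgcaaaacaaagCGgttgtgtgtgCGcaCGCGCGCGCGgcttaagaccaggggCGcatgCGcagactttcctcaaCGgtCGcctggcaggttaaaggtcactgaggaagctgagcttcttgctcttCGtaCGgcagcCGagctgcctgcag
Tuba3a: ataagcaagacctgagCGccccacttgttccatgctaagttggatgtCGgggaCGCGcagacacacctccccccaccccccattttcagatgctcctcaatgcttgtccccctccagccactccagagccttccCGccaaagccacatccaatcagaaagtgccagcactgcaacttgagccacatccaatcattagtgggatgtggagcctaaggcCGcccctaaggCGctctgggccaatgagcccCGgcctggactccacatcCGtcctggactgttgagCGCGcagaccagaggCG
Tuba3b: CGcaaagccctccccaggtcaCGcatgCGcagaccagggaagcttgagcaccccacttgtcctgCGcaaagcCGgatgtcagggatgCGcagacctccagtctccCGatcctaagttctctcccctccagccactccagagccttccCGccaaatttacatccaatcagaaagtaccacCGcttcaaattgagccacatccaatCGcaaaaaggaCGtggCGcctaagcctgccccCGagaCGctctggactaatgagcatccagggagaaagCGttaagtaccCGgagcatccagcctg

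All 10 genes had a promoter in the RefSeq table. Their windows of 300 bases held 12 to 28 CpG dinucleotides with a median of 16.5, and the median over 27025 promoters, 1 a gene, was 7. Each of the 10 was above that median. Dazl had 28, Brdt 23, Slc25a31 22, Prss50 21, Sohlh2 17, Tuba3b 16, Tktl2 14, Rpl10l 13, and Dpep3 and Tuba3a 12. The observed over expected CpG ratio ran from 0.46 in Dpep3 to 0.83 in Slc25a31, against a median of 0.39 over all promoters.

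**Figure D1:**
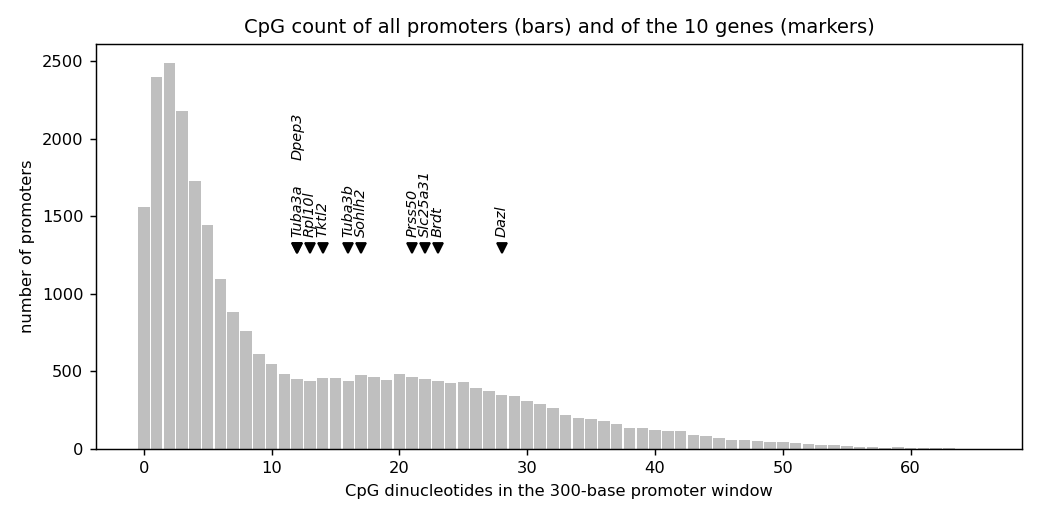
CpG dinucleotides in the 300-base promoter window (x axis) against the number of promoters with that count (y axis, bars, 27025 promoters); the markers stand at the counts of the 10 genes and their height carries no value. The markers run from 12 (Dpep3 and Tuba3a) to 28 (Dazl), to the right of the median of 7.

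Both strands were searched for 4 strings of letters. CACGTG, the E-box that Max and Mga bind, was in 2 of the 10 promoters (Brdt and Slc25a31), in 7.24% of all promoters and in 10.9% of the 7407 promoters whose CpG count lay in the range of the 10. GCGGGA, the core of the E2F motif, was in 5 (Tuba3a, Tuba3b, Rpl10l, Slc25a31 and Prss50), in 20% of all promoters and in 36.3% of those in the CpG range. The longer GGCGGGAA, which contains GCGGGA, was in 3 (Tuba3a, Tuba3b and Slc25a31), in 2.24% of all and in 4.44% of those in the range. TGCGCA, a palindromic part of the Nrf1 motif, was added after the sequences had been seen, so its count was chosen for what they hold. It was in 6 (Dazl, Tuba3b, Rpl10l, Dpep3, Slc25a31 and Tktl2), with 3 copies in Tuba3b, and in 8.06% of all promoters and 15.6% of those in the range. A match is a string of letters and not a bound site. The Tuba3a and Tuba3b windows were identical at 211 of 337 aligned positions (62.6%). The Tuba3b window is set on the RefSeq start. The GENCODE gene that was counted starts upstream of it, at 145615757, so most of the Tuba3b window lies inside that gene.

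The libraries held 33168178 to 58197630 estimated counts. Dnmt1 was at 36.7 to 55.2 CPM (counts scaled to 1e+06 by the effective library size) in the 4 TKO group means and at 312 to 501 CPM in the 4 WT group means. Dnmt3a was called lower in TKO on days 0, 2 and 7 and Dnmt3b on days 2, 4 and 7 (edgeR, adjusted p of 0.0117 or less). The day 0 call of Dnmt3a (-3.53) was lost when WT replicate 1 (-3.66), TKO replicate 1 (-3.61) or TKO replicate 2 (-3.42) was left out and with an offset for effective transcript length (-3.05), and the day 2 call of Dnmt3b (-0.91) when TKO replicate 2 was (-0.85). On day 4 the TKO libraries stood apart from each other, with Dnmt3a at 187 and 33.9 CPM, Dnmt3b at 431 and 757 CPM and Dnmt3l at 42.2 and 17.4 CPM in replicates 1 and 2, and Dnmt3a was not called by edgeR (log2 fold change -1.61, adjusted p = 0.0553). It was called lower when TKO replicate 1 (-3.33) or TKO replicate 2 (-0.86) was left out, with the stricter filter (-1.61) and with DESeq2 (-1.60). Several of the 10 genes also differ between these libraries, so day 4 values are given for both, and the values without each are given where they change.

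Between day 0 and day 7 the summed level of the 10 genes went from a mean of 526 CPM to 2.1 CPM in WT cells and from 419 CPM to 177 CPM in TKO cells. In WT, 5 of the 10 (Sohlh2, Tuba3b, Rpl10l, Slc25a31 and Tktl2) had no count in either day 7 library. In TKO, all 10 had a mean of 1.45 CPM or more on day 7. Because whole cultures were sequenced, fewer cells with a transcript and less transcript per cell cannot be told apart here.

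A gene is called higher or lower below where edgeR's quasi-likelihood test gave an adjusted p under 0.05 over the 18489 genes tested, and all 10 genes passed the filter on low counts. The direction of the TKO to WT difference depended on the day. On day 0 none of the 10 was called higher and 5 were called lower in TKO (Dazl, Sohlh2, Dpep3, Tktl2 and Prss50), where 4.52% and 8.16% of all genes were called higher and lower. Their median log2 fold change was -0.93, against -0.03 over all genes. On day 2 Dazl and Tktl2 were called higher and Brdt lower, with 7.91% and 5.52% of all genes called. On day 4, 9 were called higher, all but Brdt, and none lower, with 17.8% and 11.1% of all genes called, and the median was 3.27 against 0.01. On day 7 all 10 were called higher, with 23.4% of all genes called higher and 21.1% lower, and the median was 8.77 with the genes absent from WT at their lower bound. The genes were chosen with these contrasts known, so the counts describe the choice and were not read against the shares of all genes.

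The 2 libraries of a genotype can also be set against those of the other with no model. Both TKO libraries were above both WT libraries for 1 of the 10 genes and below for 6 on day 0 (23.9% and 29.6% of all genes), for 5 and 3 on day 2 (30.5% and 31.8%), for 9 and 1 on day 4 (32.4% and 30%), and for 10 and 0 on day 7 (39.5% and 39.7%).

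**Figure D2:**
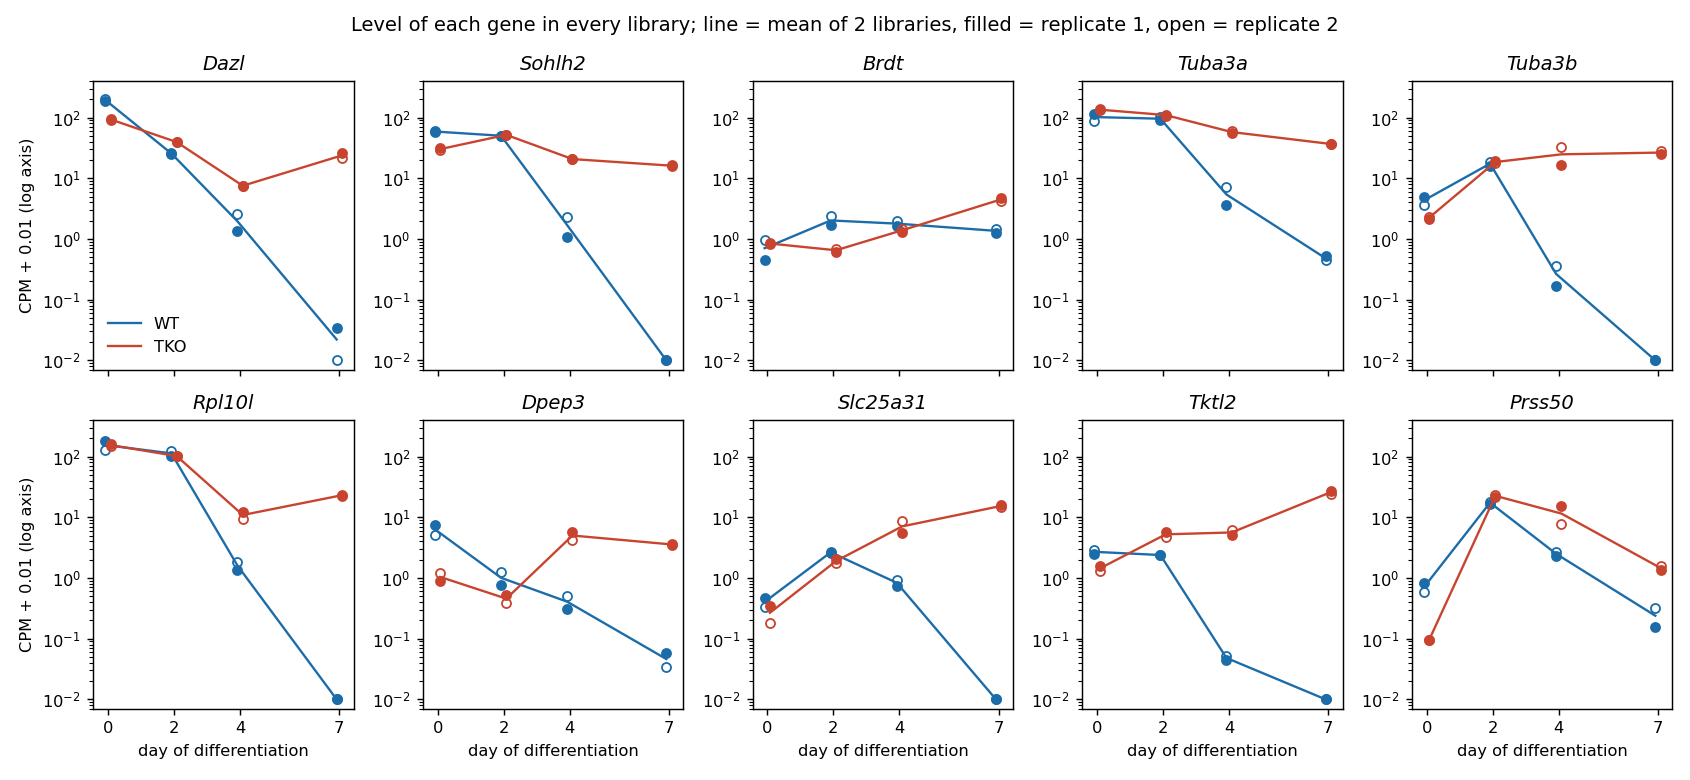
Level of each of the 10 genes in every library (y axis, CPM plus 0.01 on a log axis) by day of differentiation (x axis), WT in blue and TKO in red, filled circles for replicate 1, open circles for replicate 2 and lines through the mean of 2 libraries. On day 7 the WT points of Sohlh2, Tuba3b, Rpl10l, Slc25a31 and Tktl2 lie at 0 CPM, drawn at 0.01, and all TKO points lie above 1 CPM.

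Dazl codes for an RNA-binding protein that controls translation in germ cells and is needed for them to develop. In WT it stood at 190 and 200 CPM on day 0, 26.1 and 25.1 on day 2, 1.34 and 2.53 on day 4, and 0.0241 and 0 on day 7, where the libraries held 1 and 0 counts. In TKO it stood at 91.1 and 95.5 CPM on day 0, 39.5 and 39.4 on day 2, 7.50 and 7.54 on day 4, and 26.4 and 21.2 on day 7. The genotypes did not overlap on any day: TKO was below WT on day 0 and above it on days 2, 4 and 7. The level in TKO did not only fall, since both day 7 libraries were above both day 4 libraries.

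The log2 fold change of Dazl in TKO over WT was -1.07 ± 0.16 (SE) on day 0, 0.62 ± 0.16 on day 2 and 1.98 ± 0.20 on day 4. The day 2 call was lost when any 1 of the 4 libraries was left out, with values of 0.60 to 0.65. On day 7 the ratio of counts was 1967, with a 95% exact binomial interval of 353 to 77751 that covers counting error only, because WT rests on a single count. Against day 0 of the same genotype, day 7 held 25.5% of the level in TKO and 0.00618% in WT. In order of mean level the groups were WT day 0, TKO day 0, TKO day 2, WT day 2, TKO day 7, TKO day 4, WT day 4 and WT day 7, and of these neighbours only WT day 2 and TKO day 7 overlapped.

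Of the 6 annotated Dazl transcripts, the full-length one (ENSMUST00000010736, 2976 bases) took 85.7% to 97.1% of the gene's counts in the libraries of all groups but WT day 7. The count left in WT on day 7 fell on another transcript, ENSMUST00000233248. That transcript took 535 counts in replicate 1 and 35.7 in replicate 2 of WT day 0, whereas the gene's totals there were 7028 and 7978. The summed value of Dazl was therefore steadier than its split by transcript.

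Sohlh2 codes for a basic helix-loop-helix transcription factor of early spermatogonia and oocytes. Its WT libraries were at 58.6 and 59.2 CPM on day 0, 49.9 and 50.6 on day 2, 1.05 and 2.30 on day 4, and 0 and 0 on day 7. The TKO libraries were at 31 and 29.4 CPM, 52.3 and 51.5, 20.8 and 20.7, and 16.3 and 15.9 on the same days. TKO was thus below WT on day 0, within 2 CPM of it on day 2 and well above it on days 4 and 7. The log2 fold change was -0.96 ± 0.17 on day 0 and 3.66 ± 0.21 on day 4, and on day 7 TKO was at least 445-fold higher, set against a floor of 3 counts over the WT group. Without TKO day 0 replicate 2 the day 0 call was lost (-0.91), and without WT day 4 replicate 2 the day 4 value was 4.30. In TKO, Sohlh2 rose from day 0 to day 2 (0.78 ± 0.17) and was lower than on day 0 by day 7 (-0.91 ± 0.18).

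Rpl10l is an autosomal copy of the X-linked ribosomal protein gene Rpl10 and serves male meiosis, when the X chromosome is silent. It had the highest level of the 10 per transcript length on day 0, at 231 ± 22.8 TPM (transcripts scaled for length to a fixed sum, mean ± SD, n = 2) in WT and 262 ± 10.8 TPM in TKO. On the CPM scale WT was at 179 and 130 on day 0, 102 and 124 on day 2, 1.34 and 1.84 on day 4, and 0 and 0 on day 7. TKO was at 160 and 151 CPM, 102 and 103, 12.2 and 9.49, and 22.4 and 23.7. The genotypes overlapped on days 0 and 2 and separated on days 4 and 7. Its log2 fold change was 2.78 ± 0.21 on day 4, and on day 7 TKO was at least 638-fold higher. As with Dazl, both TKO day 7 libraries were above both TKO day 4 libraries. Stretches of 31 bases shared with other genes made up 23.4% of its transcript, all with the predicted gene Gm14460 and none with Rpl10.

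Tuba3a and Tuba3b code for alpha-tubulins found mainly in the testis. Of the 31-base stretches of Tuba3a 45.5% also occur in Tuba3b, and 38.6% of those of Tuba3b occur in Tuba3a, so how reads were divided between them rests on the remaining stretches. The predicted gene Gm5366 shares 9.67% of the stretches of Tuba3a and 10.5% of those of Tuba3b. Tuba3a was at 115 and 88.2 CPM in WT on day 0, 90.4 and 101 on day 2, 3.57 and 7.21 on day 4, and 0.507 and 0.434 on day 7. In TKO it was at 136 and 133 CPM, 111 and 108, 55.1 and 60.2, and 36.5 and 36.9. TKO was above WT in both libraries on all 4 days, by a margin not called on days 0 and 2. The log2 fold change was 0.41 ± 0.20 on day 0, 0.19 ± 0.20 on day 2, 3.43 ± 0.23 on day 4 and 6.28 ± 0.32 on day 7.

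Tuba3b took another course. In WT it was at 4.97 and 3.64 CPM on day 0, 16 and 18.8 on day 2, 0.155 and 0.355 on day 4, and 0 and 0 on day 7. In TKO it was at 2.16 and 2.31 CPM, 18.5 ± 0.734 (SD, n = 2), 16.8 and 32.9, and 24.9 and 28. Both genotypes gained Tuba3b by day 2 (2.01 ± 0.29 in WT and 3.05 ± 0.31 in TKO), after which WT lost it and TKO kept it. On day 0 Tuba3b was not called by edgeR (-0.94 ± 0.32) and was called lower in TKO by DESeq2 (-0.93). The TKO to WT log2 fold change on day 4 was 6.63 ± 0.40, 7.03 and 6.07 without TKO replicates 1 and 2, and 7.29 without WT replicate 2. On day 7 TKO was at least 733-fold higher.

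Because reads can move between the copies, the pair was also summed, which does not cover reads shared with Gm5366. The sum was 106 CPM in WT and 137 CPM in TKO on day 0 and 0.47 CPM in WT and 63.2 CPM in TKO on day 7. The share of the sum given to Tuba3b was 4.06% in WT and 1.64% in TKO on day 0, and 15.4% and 14.5% on day 2. On day 4 it was 4.43% in WT, and 23.4% and 35.3% in the TKO libraries. On day 7 it was 0% in WT and 41.9% ± 1.83 (SD, n = 2) in TKO. The sum thus declined in TKO while the part assigned to Tuba3b grew.

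**Figure D3:**
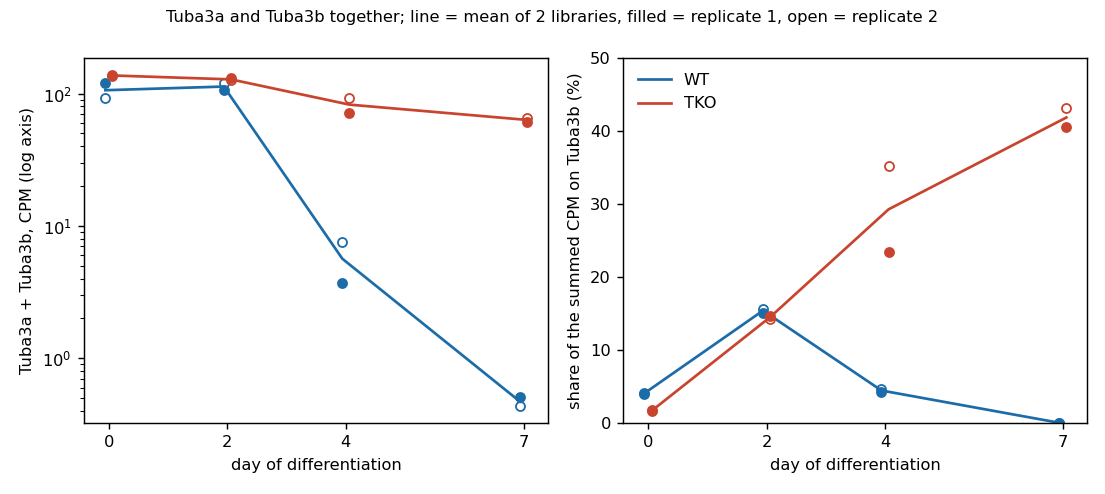
Left, summed CPM of Tuba3a and Tuba3b (log axis) by day; right, percent of that sum assigned to Tuba3b by day, with WT in blue, TKO in red, points for libraries (filled replicate 1, open replicate 2) and lines through the means. In TKO the Tuba3b share goes from 1.64% on day 0 to 41.9% on day 7 and in WT from 4.06% to 0%.

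Slc25a31 codes for the ADP/ATP carrier of the inner mitochondrial membrane used by spermatocytes and sperm. WT was at 0.460 and 0.327 CPM on day 0, 2.60 and 2.67 on day 2, 0.724 and 0.920 on day 4, and 0 and 0 on day 7. TKO was at 0.342 and 0.173 CPM, 2.02 and 1.76, 5.50 and 8.64, and 16.2 and 14.7. In TKO the mean was higher at each later day, with no overlap between days, and in WT it peaked on day 2. The day 4 log2 fold change was 3.11 ± 0.27, and on day 7 TKO was at least 426-fold higher. From day 0 to day 7 Slc25a31 rose 59.7-fold in TKO by counts (95% interval 37.6 to 101).

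Tktl2 codes for a transketolase-like protein, related to the pentose phosphate enzyme Tkt. In WT it was at 2.46 and 2.91 CPM on day 0, 2.36 and 2.41 on day 2, 0.0345 and 0.0418 on day 4 (2 counts in each library), and 0 and 0 on day 7. In TKO it was at 1.54 and 1.3 CPM, 5.74 and 4.71, 5.17 and 6.07, and 27.5 and 24.5. TKO was lower on day 0 and higher from day 2 on, with no overlap on any day. The log2 fold change was -0.92 ± 0.19 on day 0, 1.13 ± 0.17 on day 2 and 7.10 ± 0.29 on day 4. WT held 4 counts in all on day 4, where the count ratio was 148 with a counting interval of 57.5 to 546. The SE of 0.29 is narrower than that interval and understates the error of the day 4 value. On day 7 TKO was at least 719-fold higher. The day 0 call was lost without TKO day 0 replicate 2 (-0.79) and with only the libraries compared in the fit (-0.89). The gain in TKO from day 4 to day 7 was carried by both annotated transcripts: the longer one took 65.7% and 61.6% of the counts on day 4 and 75.3% and 73.1% on day 7.

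Dpep3 codes for a membrane-bound dipeptidase of the testis. WT was at 7.46 and 5.17 CPM on day 0, 0.751 and 1.25 on day 2, 0.293 and 0.502 on day 4, and 0.0483 and 0.0241 on day 7. TKO was at 0.882 and 1.18 CPM, 0.519 and 0.375, 5.75 and 4.25, and 3.56 and 3.55. WT declined from day 0 on, whereas TKO was lowest on day 2 and highest on day 4. The log2 fold change was -2.61 ± 0.31 on day 0, -1.15 ± 0.37 on day 2 (not called) and 3.67 ± 0.34 on day 4. The day 2 difference was called lower with no filter on low counts (-1.14), with DESeq2 (-1.15) and without WT day 2 replicate 1 (-1.49). On day 7 the count ratio was 98.3, with a counting interval of 33.3 to 480, since WT held 3 counts in all. Dpep3 overlaps the antisense gene Gm45752, with which it shares 4.44% of its 31-base stretches.

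Prss50 codes for a serine protease-like protein of the testis. It was nearly absent in naive cells and peaked on day 2 in both genotypes: WT was at 0.811 and 0.578 CPM on day 0, 16.6 and 18.2 on day 2, 2.33 and 2.65 on day 4, and 0.145 and 0.313 on day 7. TKO was at 0.0854 and 0.0866 CPM (3 counts in each library), 21.8 and 23.5, 15.4 and 7.70, and 1.32 and 1.57. In TKO its mean declined after day 2, from 22.6 to 11.5 and then 1.45 CPM, with no overlap between days. The log2 fold change was -2.96 ± 0.62 on day 0, 0.38 ± 0.25 on day 2 (not called), 2.21 ± 0.27 on day 4 and 2.64 ± 0.44 on day 7. Leaving out WT replicate 1, TKO replicate 1 or TKO replicate 2 ended the day 0 call, at -2.71, -2.94 and -2.96, as did fitting only the libraries compared (-2.93). That fit called the day 2 difference higher (0.41). On day 4, where the TKO libraries differ, the value was 1.63 without TKO replicate 1 and 2.62 without TKO replicate 2. On day 7 it was 3.26 without WT replicate 2.

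Brdt codes for the testis member of the BET family, which binds acetylated histones through bromodomains. Its total differed from the other 9 in that WT kept it, with most WT day 7 counts assigned to the internal transcript described below. WT was at 0.433 and 0.955 CPM on day 0, 1.67 and 2.36 on day 2, 1.62 and 1.94 on day 4, and 1.26 and 1.45 on day 7. TKO was at 0.825 and 0.837 CPM, 0.601 and 0.680, 1.31 and 1.45, and 4.77 and 4.22. TKO was below WT on days 2 and 4 and above it on day 7, with log2 fold changes of -1.64 ± 0.31, -0.37 ± 0.28 (not called) and 1.73 ± 0.28. The day 2 call was lost without WT day 2 replicate 2 (-1.37) and with an offset for effective transcript length (-1.34). In WT, the rise to day 7 (0.95 ± 0.32) was not called without WT day 0 replicate 1 (0.50) or without WT day 7 replicate 2 (0.87), with the effective-length offset (0.88) or with only the libraries compared (0.94), and was 1.67 without WT day 0 replicate 2.

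The Brdt total hid a change of transcript. On GRCm38, 3 of its 4 annotated transcripts start near position 107331159 of chromosome 5, where the promoter window lies, and 1, ENSMUST00000162804, starts inside the gene at 107359837. In WT on day 7 the internal transcript took 70.4% and 74.1% of the counts of Brdt and the full-length ENSMUST00000031215 29.6% and 25.3%. In TKO on day 7 the internal transcript took 0% and 6.00% and the full-length one 87.3% and 82.0%. Transcripts from the upstream start were at 0.371 and 0.375 CPM in WT and 4.77 and 3.96 CPM in TKO, a ratio of means of 11.7, whereas the internal one was at 0.884 and 1.07 CPM in WT and 0 and 0.253 CPM in TKO, a ratio of 0.132. The libraries did not overlap on either measure.

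On day 2 the order of the upstream transcripts was the other way, with 1.51 and 2.10 CPM in WT and 0.131 and 0.326 CPM in TKO, a ratio of 0.133. There the short upstream transcript ENSMUST00000112677 took 40.4% and 40.7% of the Brdt counts in WT and 10% and 3.47% in TKO. No more than 2 libraries a group were compared, so an exact two-sided permutation test could not go below 0.333 and none was run. Only 55 of the 1538 stretches of 31 bases of the internal transcript (3.58%) are absent from the full-length one, so the split rests on few distinguishing bases and on how coverage is spread along the gene. Brdt also overlaps the antisense gene Gm8152, but only 9 of the 4715 stretches of its full-length transcript occur in any other gene. The library kit marks strand, but whether the counting used it is not given in the sources used here. Reads from the stretches that Dpep3 shares with Gm45752 may therefore not be told apart.

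**Figure D4:**
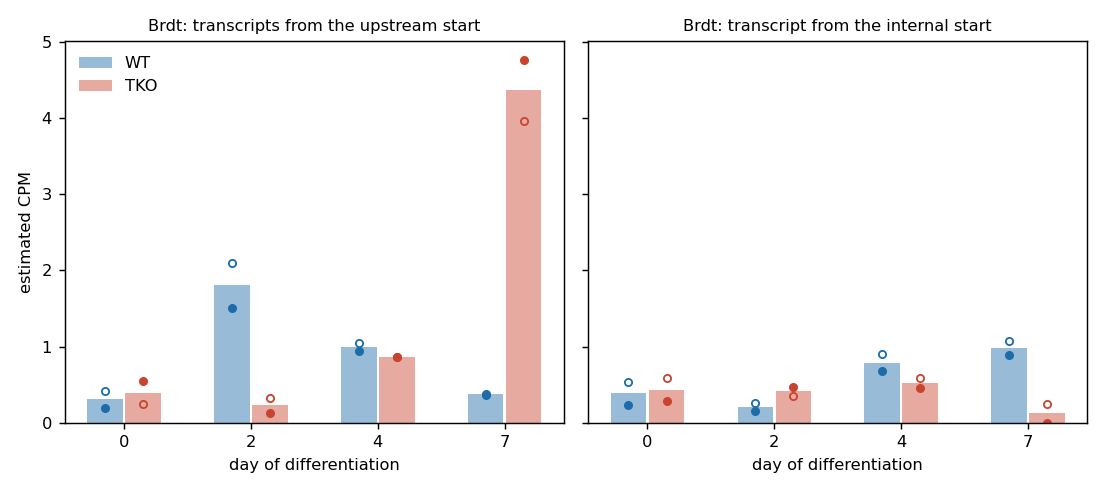
Estimated CPM of Brdt (y axis) from the upstream start (left, 3 transcripts summed) and from the internal start (right, 1 transcript) by day, WT in blue and TKO in red, bars for the mean of 2 libraries and points for each library (filled replicate 1, open replicate 2). On day 7 the upstream bars stand at 0.373 in WT and 4.37 in TKO and the internal bars at 0.978 and 0.127.

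The courses within a genotype share their day 0 libraries, and the values against day 0 are set side by side for that reason. In WT, 4 of the 10 were called higher and 3 lower on day 2 (32.9% and 28.6% of all genes), 3 higher and 7 lower on day 4 (31.9% and 31.2%), and 1 higher, Brdt, and 9 lower on day 7 (32.9% and 33.2%). In TKO, 5 were called higher and 3 lower on day 2 (31.5% and 25.5%), 5 higher and 4 lower on day 4 (34.4% and 28.6%), and 6 higher and 4 lower on day 7 (36.1% and 31.7%). Some of these calls depended on the setting. In WT, Brdt was not called with the effective-length offset on day 2 (1.01) or day 4 (0.82). Rpl10l on day 2 was not called without WT day 0 replicate 1 (-0.21), without WT day 2 replicate 1 (-0.32) or with only the libraries compared (-0.51), and Slc25a31 on day 4 not without WT day 0 replicate 2 (0.84), without WT day 4 replicate 2 (0.88) or with only the libraries compared (1.06). Prss50 on day 7 was not called without WT day 0 replicate 1 (-1.32) or WT day 7 replicate 1 (-1.10). In TKO, Dpep3 on day 2 was not called without TKO day 0 replicate 2 (-1.01) or TKO day 2 replicate 2 (-0.99), and Sohlh2 on day 4 not without TKO day 0 replicate 1 (-0.52). With only the libraries compared, Tuba3a on day 2 (-0.35) and Brdt on day 4 (0.73) gained a call in TKO.

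Both libraries of the later day lay above both of day 0 in WT for 4 of the 10 and below for 5 on day 2 (39.7% and 34.5% of all genes), for 3 and 7 on day 4 (38.5% and 37.1%) and for 1 and 9 on day 7 (39.4% and 40.6%). In TKO they did so for 5 and 5 on day 2 (45.1% and 38.7%), for 6 and 4 on day 4 (44.1% and 40.3%) and for 6 and 4 on day 7 (45.5% and 42.3%). The 4 that were called lower in TKO on day 7 were Dazl, Sohlh2, Tuba3a and Rpl10l, the 4 with the highest TPM on day 0. The 6 that were higher were Brdt, Tuba3b, Dpep3, Slc25a31, Tktl2 and Prss50.

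The 4 genes that were lower kept 25.5% (Dazl), 53.3% (Sohlh2), 27.3% (Tuba3a) and 14.8% (Rpl10l) of their day 0 mean in TKO, and in WT 0.463% (Tuba3a) or less. Those that were higher reached 345% (Dpep3), 541% (Brdt), 1184% (Tuba3b), 1682% (Prss50), 1837% (Tktl2) and 5991% (Slc25a31) of day 0. On the TPM scale, which allows for transcript length, the order in TKO on day 7 was Tuba3a at 46.9, Rpl10l at 46.8, Tuba3b at 28.1, Dazl at 19.7, Slc25a31 at 13.4, Sohlh2 at 12.4, Tktl2 at 12.3, Dpep3 at 3.97, Brdt at 2.89 and Prss50 at 1.98. The range from highest to lowest was far narrower than on day 0, when Rpl10l was at 262 TPM and Prss50 at 0.0951 TPM in TKO.

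**Figure D5:**
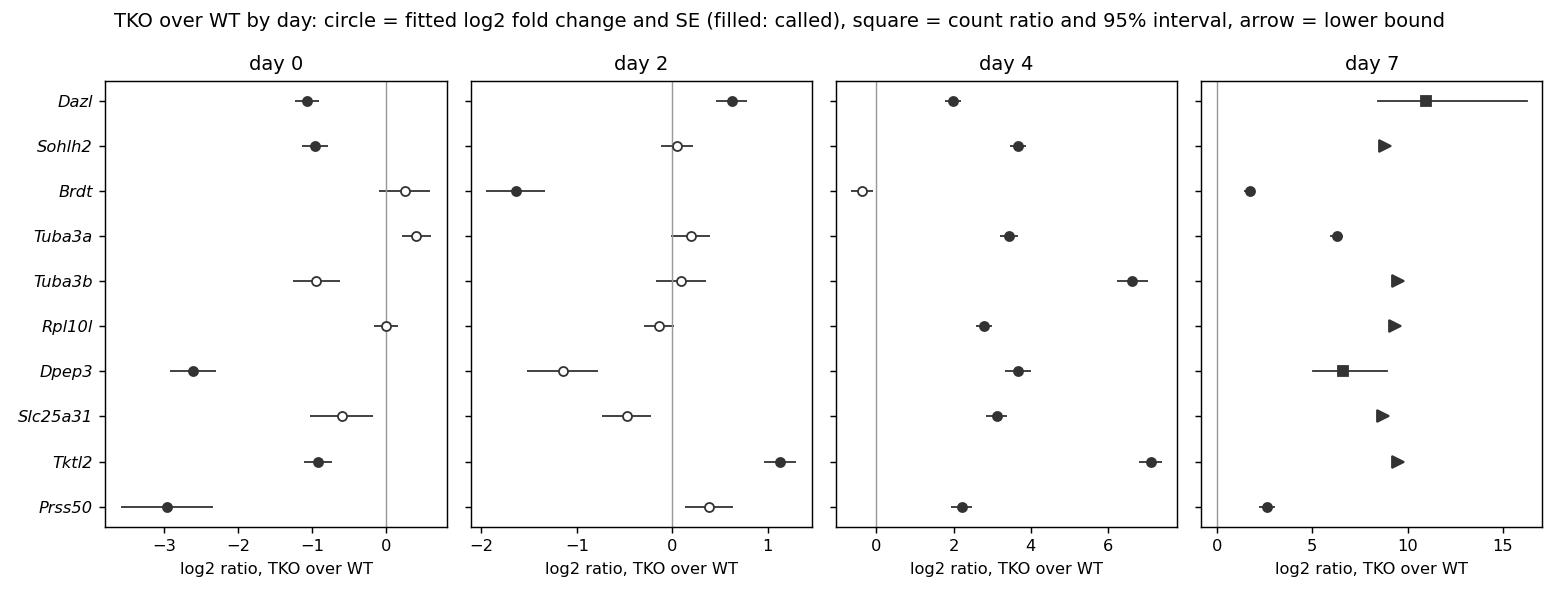
Ratio of TKO to WT for the 10 genes (rows) on days 0, 2, 4 and 7 (panels, each with its own x axis of log2 ratio): circles give the fitted log2 fold change with its SE, filled where called, squares a ratio of counts with its 95% counting interval, and arrows a lower bound where WT had no count. On day 0 the called circles lie left of 0, from -2.96 (Prss50) to -0.92 (Tktl2), and on day 7 all markers lie right of 0. The SE of Tktl2 on day 4 is narrower than its counting interval.

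The 10 genes followed each other to different degrees. Over the 8 group means of log2 CPM, Dazl correlated with Rpl10l at 0.98, with Sohlh2 and Tuba3a at 0.95, with Prss50 at 0.16 and with Brdt at -0.28 (Pearson), and Tuba3b with Tktl2 at 0.95. These points share genotypes and culture days and are given as a description. Of all other protein-coding genes that passed the filter, the 5 most like Dazl were Mageb16 (0.980), Fkbp6 (0.980), Olfr575 (0.974), Cps1 (0.973) and Gstp2 (0.969). A correlation takes no account of the size of a change, and Olfr575 had group means of only 0.326 to 1.27 CPM. Fkbp6, a co-chaperone of the piRNA pathway, had group means of 82.6, 20.2, 1.55 and 0.145 CPM in WT and 84.9, 23.4, 17.7 and 15.5 CPM in TKO on days 0, 2, 4 and 7. Fkbp6 shared the fall in WT and the higher level in TKO on days 4 and 7. It did not share the lower day 0 level of Dazl in TKO, or the rise of Dazl in TKO from day 4 to day 7.

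Mageb16 was also the gene most like Rpl10l (0.993). Hormad1, a protein of the meiotic chromosome axis, was most like Sohlh2 (0.996), and Pdha2, the testis form of a pyruvate dehydrogenase subunit, was most like Tktl2 (0.990). Pdha2 was at 1.49, 1.08, 0.040 and 0.0241 CPM in WT and 1.22, 1.76, 2.55 and 12.8 CPM in TKO over the 4 days. Eng was most like Tuba3a (0.988), Mgl2 like Tuba3b (0.985), Nxf2 like Slc25a31 (0.974), Prss32 like Prss50 (0.969), Fam3b like Dpep3 (0.963) and C1qtnf1 like Brdt (0.954). Group means were low for Prss32 (0.635 CPM or less) and C1qtnf1 (0.701 CPM or less).

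Of 17 relatives of the 10 genes, most of them broadly expressed, 16 passed the filter, and 2 were called higher and 0 lower in TKO on day 0, 1 and 3 on day 2, 3 and 5 on day 4, and 4 and 6 on day 7. The shares of all genes called are those given above, and the median log2 fold change of the relatives was -0.11 on day 7. Tktl1, the X-linked transketolase-like gene, was higher in TKO on days 4 and 7, as was its relative Tktl2. It was at 0.378 CPM in WT and 4.81 in TKO on day 4 (log2 fold change 3.68 ± 0.26, adjusted p = 9.59e-07). On day 7 it was at 0 and 9.17 CPM, at least 253-fold higher in TKO (adjusted p = 6.07e-09). Tkt itself was at 680 and 486 CPM on day 7, lower in TKO by a log2 fold change of -0.48 ± 0.09 (adjusted p = 0.000477).

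The other alpha-tubulin genes of the list, Tuba1a, Tuba1b, Tuba1c, Tuba4a and Tuba8, were all called lower in TKO on day 7. The call of Tuba1b (-0.32) was lost when WT replicate 2 (-0.35) or TKO replicate 2 (-0.31) was left out. On day 7 Tuba8 was at 17.3 CPM in WT and 0.762 in TKO (-4.50 ± 0.35, adjusted p = 3.22e-07) and Tuba1a at 1262 and 532 CPM (-1.24 ± 0.15, adjusted p = 2.16e-05). On day 4 Tuba8 was higher in TKO, at 0.914 against 0.145 CPM (2.59 ± 0.46, adjusted p = 0.000898), with 3.41 when WT replicate 1 and 1.97 when TKO replicate 1 was left out. Tuba4a was lower in TKO on day 4 (-0.61 ± 0.10, adjusted p = 0.000537). Brd2, a BET relative of Brdt found in most cells, was at 268 CPM in WT and 398 in TKO on day 7 (0.57 ± 0.07, adjusted p = 1.9e-05). Boll, the Dazl relative of later germ cells, was at 1.64 CPM in WT and 0.768 in TKO on day 4 (-1.09 ± 0.26, adjusted p = 0.00755), but the call was lost without WT replicate 2 (-0.95), with only the libraries compared (-1.08) and with the effective-length offset (-0.48). Sohlh1, the partner of Sohlh2, had group means of 0.455 CPM or less.

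A list of 30 other germline genes known to respond to DNA methylation was counted in the same way. For this and the lists that follow, the shares of all genes called are again those given above. They ran from 4.52% higher and 8.16% lower on day 0 to 23.4% and 21.1% on day 7. In TKO against WT, 0 were called higher and 14 lower on day 0, 1 and 9 on day 2, 21 and 4 on day 4, and 23 and 2 on day 7, with medians of -0.70, -0.34, 1.02 and 4.01. The 0 called higher on day 0 by edgeR was also 0 at an unadjusted p under 0.05 and with DESeq2. The list was drawn up with earlier results of these data known, so its counts are no independent evidence of direction. On day 7 the members called higher with the lowest adjusted p were Asz1, a piRNA pathway gene at 0 CPM in WT and 50.2 in TKO (at least 1388-fold, adjusted p = 1.29e-10), and Fkbp6 (6.72 ± 0.24, adjusted p = 2.44e-10). The members called lower on day 7 were Syce2, a synaptonemal complex gene at 36.5 CPM in WT and 18.3 in TKO (adjusted p = 5.33e-05), and Dmc1, the meiotic recombinase (-1.22 ± 0.25, adjusted p = 0.00119). Sycp3, a protein of the synaptonemal complex, was at 47.7 CPM in WT and 7.55 in TKO on day 4 (-2.66 ± 0.15, adjusted p = 1.54e-07), the opposite of the 9 genes called that day.

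Of 16 genes of late sperm formation, 2 to 4 reached a mean of 1 CPM in any group. The filter passed 7. On days 0 and 2 edgeR called 0, with 1 lower on each day at an unadjusted p under 0.05 and 0 by DESeq2, and 1 was called higher and 2 lower on day 4, and 2 higher and 1 lower on day 7. Ldhc, the lactate dehydrogenase of spermatocytes, was at 0.374 CPM in WT and 2.67 in TKO on day 7 (2.83 ± 0.34, adjusted p = 1.71e-05). Spaca1, an acrosome gene, was at 0 and 0.534 CPM (at least 14.8-fold higher in TKO, adjusted p = 0.000562). Izumo1, the sperm protein that binds the egg, was at 1.97 CPM in WT and 0.0431 in TKO (adjusted p = 2.01e-05), a ratio of 0.0215 with a counting interval of 0.00438 to 0.0638. The protamine genes Prm1, Prm2 and Prm3 had group means of 0.0522 CPM or less.

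Markers of the cell states and of other cell types were measured beside the 10 genes. Of 12 naive pluripotency markers edgeR called 0 between genotypes on day 0, with 1 lower at an unadjusted p under 0.05 and 0 by DESeq2. On day 4, when 9 of the 10 genes were higher in TKO, 8 were called higher and none lower in TKO, Fgf4 (1.64 ± 0.14, adjusted p = 2.27e-06) and Nr0b1 (3.38 ± 0.34, adjusted p = 1.61e-05) with the lowest adjusted p. The summed level of the naive markers was 345 and 431 CPM in the WT and 471 and 405 CPM in the TKO libraries on day 4, against 3728 to 4289 CPM over the libraries of day 0. On day 7, 4 were called higher and 3 lower, and the sums were 242 and 259 CPM in WT and 263 and 268 CPM in TKO. Their part in the levels of the 10 genes was not tested.

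All 8 formative epiblast markers were higher on days 2, 4 and 7 than on day 0 in both genotypes. In TKO against WT, 3 were called higher and 3 lower on day 4 and 2 and 4 on day 7. Their sum on day 7 was 2105 and 2008 CPM in WT and 1163 and 1152 CPM in TKO. A sum is weighted toward the genes with the highest levels. The median log2 fold change of the 8 on day 7 was -0.34, against 0.00 over all genes. Dnmt3b is on this list as well as being lower in TKO.

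Of 8 primordial germ cell markers, 7 passed the filter, and 3 were called higher and 1 lower in TKO on day 4 and 1 and 1 on day 7. Their sums on day 7 were 100 and 78.6 CPM in WT and 78.9 and 78.0 CPM in TKO, of which Kit made 60.6 CPM of the WT and 49.1 of the TKO mean. The gene called higher on day 7 was Dnd1, an RNA-binding protein of germ cells, at 0.832 CPM in WT and 11.7 in TKO (3.81 ± 0.27, adjusted p = 1.55e-07). The 1 called lower on day 7 is not named here. Prdm14 was at 0.0241 and 0.0144 CPM in WT and TKO on day 7, and Nanos2 had no count in either. Prdm14 and Dppa3 are also on the list of naive pluripotency markers, so the counts of these lists share genes.

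Of 8 testis somatic cell markers 6 passed the filter, with 1 called higher and 0 lower in TKO on day 4 and 0 and 1 on day 7. Their sums on day 7 were 47.1 and 37.0 CPM in WT and 24.1 and 24.8 CPM in TKO. The Leydig cell genes Cyp17a1, Insl3 and Hsd3b1 had group means of 0.0844 CPM or less on that day, with Insl3 at 0 in TKO. The gene called lower was Gata4, at 23.9 CPM in WT and 5.82 in TKO (-2.04 ± 0.39, adjusted p = 0.000993). Of 8 feeder and stromal fibroblast markers 7 passed the filter, with 1 called higher and 1 lower on day 4 and 2 and 0 on day 7, when the sums were 42.2 and 32.8 CPM in WT and 54.9 and 55.9 CPM in TKO. Pdgfra was at 3.09 CPM in WT and 25.1 in TKO (3.02 ± 0.32, adjusted p = 5.7e-06). The median log2 fold change of the 7 fibroblast markers on day 7 was -0.37. Both TKO libraries were above both WT libraries for 4 of the 8 and below for 2 (39.5% and 39.7% of all genes). The list of 15 repressors of germline genes, which holds the Dnmt genes, had 2 called higher and 2 lower on day 0, 0 and 5 on day 2, 2 and 4 on day 4, and 2 and 6 on day 7. The part of these markers in the levels of the 10 genes was not tested.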

How the data were processed

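RNA was sequenced as stranded polyadenylated libraries from 16 cultures. Per the submitters' processing notes, transcripts were quantified with kallisto on mouse GRCm38 (mm10); its version, the transcript annotation and the strand setting are not given in the sources used here. The deposited files hold, per the file headers, estimated counts, TPM and an effective length for 119414 transcripts in each library. Of these, 116728 (97.8%) matched GENCODE vM21 genes by Ensembl identifier, and the rest held 0.946% to 1.05% of counts. These deposited estimated counts were added up by gene, then rounded to whole numbers. Deposited TPM values were summed per gene to compare genes with each other.

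Counts were fitted with edgeR 4.0.16 (R 4.3.3): TMM normalization, the default low-count filter by group (18489 genes kept), 1 mean per group over all 16 libraries, 8 residual degrees of freedom, a robust quasi-likelihood test and Benjamini-Hochberg adjustment over all genes tested at 0.05. CPM values use the TMM effective library sizes, and ± after a log2 fold change is its standard error. For Tktl2 on day 4 this standard error is narrower than the counting interval given beside it. Where a group had no count, the ratio is a bound against 3 counts over the group, and with 1 to 3 counts it is a count ratio with a 95% exact binomial interval. Totals of 33168178 to 58197630 estimated counts make 1 count worth 0.0172 to 0.0289 CPM. Reads are not separate molecules, so these intervals cover counting error only. The test was checked on simulated data with known changes.

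The 10 genes and the lists were chosen with earlier results of these data known. Named from other lists were Dnmt1, Dnmt3a and Dnmt3b, up to 2 called genes per direction, list and comparison with the lowest adjusted p, and the relatives; Dnmt3l, Sycp3, Cyp17a1, Insl3, Hsd3b1, Prdm14, Nanos2, Kit and the protamine genes were partly chosen after their values were seen. Genes most like each of the 10 were ranked by Pearson correlation of mean log2 CPM over the 8 groups. Sequence matches in 31-base stretches came from GENCODE transcripts and promoters from RefSeq. The labels call the libraries biological replicates and give no more. The p-values rest on the spread between libraries within groups, estimated over all 8 groups together and not only the 2 compared. Alternatives were RLE size factors, DESeq2 1.42.0, other filters, fits on the compared libraries only, a replicate block, an effective-length offset, Tuba3a and Tuba3b summed, and each library left out.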

Additional observations from a re-analysis of the deposited data

Results flagged for a closer look

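For 8 of the 10 genes (all but Tuba3a and Rpl10l) the TKO to WT difference lay in opposite directions on some pair of days. Both libraries of a genotype were on the same side each time. The share of all genes that did so was not counted, so this number is not read as particular to the 10. By day, both TKO libraries were above both WT libraries for 23.9% to 39.5% of all genes and below for 29.6% to 39.7%. Between day 0 and day 2 the log2 fold change moved by 1.69 for Dazl, 1.01 for Sohlh2, 2.05 for Tktl2 and 3.34 for Prss50. Between day 0 and day 4 it moved by 3.05 for Dazl, 4.62 for Sohlh2, 7.57 for Tuba3b, 6.28 for Dpep3, 8.02 for Tktl2 and 5.17 for Prss50. Between day 0 and day 7 it moved by 11.69 for Dazl, 13.35 for Sohlh2, 14.04 for Tuba3b, 9.12 for Dpep3, 14 for Tktl2 and 5.60 for Prss50. From day 2 the move was 4.82 to day 4 and 7.66 to day 7 for Dpep3, 3.59 to day 4 and 12.80 to day 7 for Slc25a31, and 3.37 to day 7 for Brdt, and for Brdt it was 2.10 from day 4 to day 7. Fitted day 7 values of genes with few or no WT counts depend on the prior count and are no bound. The differences between days were not tested, since the genes were chosen with these values known. Leaving out 1 library ended the day 0 calls of Sohlh2, Tktl2 and Prss50 and the day 2 calls of Dazl and Brdt, as given beside each gene.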

How the results depend on the processing

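On days 4 and 7 each of the 246 values of the 10 genes under the alternatives kept its direction and its side of the threshold in TKO against WT. Over all comparisons, 1155 of 1200 values did so, 30 lost and 8 gained a call, and 7 changed sign, none of them called. Of the 10 genes, with 1 library left out these ranged over Brdt on day 0 (-0.20 to 0.96), Rpl10l on day 0 (-0.19 to 0.25), Tuba3b on day 2 (-0.02 to 0.21), Rpl10l on day 2 (-0.28 to 0.00) and Tuba3a in WT from day 0 to day 2 (-0.29 to 0.12). Of Dnmt3b and the relatives, also uncalled there, so did Dnmt3b on day 0 (-0.01 to 0.11), Sohlh1 on day 0 (-0.86 to 4.33), Tuba1b on day 0 (-0.07 to 0.27), Tuba4a on day 0 (-0.04 to 0.29), Rpl10 on day 0 (-0.25 to 0.02), Dpep1 on day 0 (-0.40 to 0.40), Slc25a4 on day 0 (-0.29 to 0.07), Slc25a5 on day 0 (-0.23 to 0.07), Brd3 on day 2 (-0.11 to 0.03), Tuba1a on day 2 (-0.03 to 0.31), Tuba1c on day 2 (-0.11 to 0.04), Sohlh1 on day 4 (-1.79 to 1.70), Tuba1a on day 4 (-0.36 to 0.07), Tuba1c on day 4 (-0.02 to 0.16), Dpep1 on day 4 (-1.58 to 0.38), Brd3 on day 7 (-0.06 to -0.01) and Slc25a4 on day 7 (-0.11 to 0.11). Other settings changed the sign of Rpl10l on day 0 (-0.01, effective-length offset), Boll on day 0 (0.76, effective-length offset), Brd2 on day 0 (-0.03, effective-length offset), Dpep1 on day 0 (0.37, effective-length offset), Brd3 on day 2 (0.11, effective-length offset), Brd3 on day 4 (0.18, effective-length offset) and Brd3 on day 7 (-0.02, no filter on low counts). Over all genes of the other lists, 4147 of 4681 values kept direction and call, 258 lost and 103 gained a call, and 173 changed sign, 0 of them of a called gene.

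Days 0 and 2 were less stable. Of the 10 genes, the number called lower in TKO on day 0 was 5, and 3 when only the libraries compared were fitted and 2 to 5 with 1 library left out. On day 2 the number called lower was 1, and 2 with no filter on low counts, 2 with DESeq2 and 0 with the effective-length offset. With 1 library left out it was 0 to 2, and the number called higher fell from 2 to 1 with any library left out. Over all genes, 1020 of 18489 were called lower on day 2, 972 of 27818 with no filter, 1368 of 27818 with DESeq2 and 532 of 18489 with the offset. With 1 library left out, 464 to 990 of all genes were called higher and 115 to 1018 lower. In WT from day 0 to day 7 the 1 gene called higher became 0 with the effective-length offset or with only the libraries compared. It was 0 to 1 with 1 library left out. Over all genes, 6088 of 18489 were called higher there, 5899 of 18489 with the offset and 5108 of 16525 with only the libraries compared. With 1 library left out, 5641 to 6123 of all genes were. Of the 30 other germline genes, the 14 called lower on day 0 became 4 with only the libraries compared and 5 to 13 with 1 library left out, when 0 to 1 were called higher, and the 9 called lower on day 2 became 5 to 9. The cause was not tested.

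Over all genes, the 835 called higher and 1508 called lower on day 0 became 110 and 249 with only the libraries compared, and the 3296 and 2046 of day 4 became 1789 and 1032. With 1 library left out, day 0 gave 218 (without TKO replicate 2) to 1919 (without WT replicate 2) higher and 469 to 2375 lower, and the 1462 and 1020 of day 2 became as few as 464 and 115 (without TKO replicate 2). Each of the 4 libraries moved a day 0 count by over 1.5 times, and on day 2 each but WT replicate 1 did. The 1020 lower on day 2 became 532 with the effective-length offset, and the 2046 lower on day 4 became 1340 without WT replicate 1.

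Replicate numbers did not pair the libraries: deviations of same-numbered libraries correlated at -0.332 to 0.0743 over 28 pairs of groups. With a replicate block, 0 of the 10 genes were called higher and 5 lower on day 0, 2 and 1 on day 2, 9 and 0 on day 4, and 10 and 0 on day 7, where over all 18489 genes the same fit called 695 and 1297, 1286 and 812, 3115 and 1857, and 4167 and 3713. Brdt in TKO on day 4 against day 0 (0.73) gained a call. Pairing the numbers crosswise, added after seeing the data, gave 9 called higher and 0 lower on day 4 (3489 and 2171 over all genes) and, in WT from day 0 to day 2, 4 and 3 (6547 and 5667).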
